A study of Mus musculus with 160 samples.

Results

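The genes described here are 10 transcripts that mark or serve the inhibitory interneurons of the forebrain: the peptide precursors Vip, Sst, Npy, Cort, Crh and Cck, the calcium-binding protein gene Pvalb, the GABA-synthesising enzymes Gad1 and Gad2, and Nos1, the neuronal nitric oxide synthase. They were taken by name, and all 10 were found among the 43432 genes of the deposited tables. RNA was sequenced from cortex and striatum of 32 mice on a C57BL/6J background, in 4 arms of 8 mice with 4 males and 4 females each. The arms were wild type on vehicle, R6/2 on vehicle, and R6/2 on CHDI-00390576 at 30 or at 100 mg/kg. All mice, controls included, were dosed by mouth 2 times a day, no wild-type mouse received the compound, and the age of the mice is not given in the sources used here. R6/2, labelled Tg(HDexon1)62Gpb, is a transgenic mouse model of Huntington's disease that carries the first exon of the human huntingtin gene with an expanded CAG repeat, and CHDI-00390576 inhibits histone deacetylases of class IIa, per the series title.

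Cortical inhibitory neurons form a minority of cortical neurons and fall into classes that are told apart by what they express. Somatostatin (Sst) cells innervate the dendrites of pyramidal neurons, parvalbumin (Pvalb) cells fire fast and innervate the region of the soma, and vasoactive intestinal peptide (Vip) cells inhibit other interneurons. In the striatum most neurons are themselves GABAergic projection neurons that express Gad1 and Gad2, and a sparse interneuron class expresses Sst, Npy and Nos1 together. The measurements are of whole tissue, so fewer cells of a class and less RNA per cell cannot be told apart.

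The somatostatin promoter is the textbook target of the cyclic AMP response element (CRE), the site bound by the activity-dependent factor CREB, and the promoters of the peptide genes are shown for that reason. Of the 10 genes, 9 had an entry among the RefSeq promoters of GRCm38.p6, and Crh had none, which leaves 5 peptide genes. The 150 bases before the annotated start are printed 5′ to 3′ on the gene's strand, with TGACGTCA, the full element, or the shorter element TGACG and its reverse complement CGTCA in capitals.
Sst, chr16:23890845-23890994, minus strand: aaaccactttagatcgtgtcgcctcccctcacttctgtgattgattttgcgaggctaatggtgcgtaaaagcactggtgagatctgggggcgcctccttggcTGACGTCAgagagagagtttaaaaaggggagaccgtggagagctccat
Vip, chr10:5639068-5639217, plus strand: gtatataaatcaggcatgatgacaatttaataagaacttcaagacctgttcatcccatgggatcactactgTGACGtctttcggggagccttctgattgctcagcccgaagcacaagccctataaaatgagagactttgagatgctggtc
Cck, chr9:121495695-121495844, minus strand: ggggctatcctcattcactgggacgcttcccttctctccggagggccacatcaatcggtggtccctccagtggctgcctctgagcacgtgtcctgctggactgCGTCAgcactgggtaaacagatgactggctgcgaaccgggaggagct
Cort, chr4:149126764-149126913, minus strand: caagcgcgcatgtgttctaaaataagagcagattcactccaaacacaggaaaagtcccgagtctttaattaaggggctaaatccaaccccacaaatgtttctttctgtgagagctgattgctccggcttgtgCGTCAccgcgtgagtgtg
Npy, chr6:49822560-49822709, plus strand: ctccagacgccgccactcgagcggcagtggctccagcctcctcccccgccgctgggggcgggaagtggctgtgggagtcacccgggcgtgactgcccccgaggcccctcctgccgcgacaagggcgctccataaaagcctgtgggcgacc
Positions were counted backwards from the start, with −1 the base just before it, and motifs were searched on both strands over 250 bases before to 50 after the start. The full element was found in Sst, from position −48, and in 588 of the 32851 RefSeq promoters (1.79%). The shorter element, which the full one contains on each strand, was found in 6 of the 9 members and in 20.8% of all promoters. Its first base lay at −79 in Vip, −47 in Cck, −18 in Cort, −33 in Gad2 and −130 in Nos1. These letters were not in the windows of Npy, Gad1 and Pvalb, 2 starts being listed for Pvalb. The windows of Nos1 (chr5:117866689-117866838) and Gad1 (chr2:70561979-70562128), both on the plus strand, lay wholly inside the annotated genes. These genes begin at 117781032 and 70553072, so the sequence before their first annotated base was not searched. A Pvalb window (chr15:78204238-78204387, minus strand) also lay inside its gene, which reaches to 78206400. The Sst window lay inside its gene up to base 23890958, a part that holds the full element. The Gad2 window (chr2:22622177-22622326, plus strand) lay inside its gene from base 22622205.

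Libraries held 30330000 to 35520000 counts in cortex and 30150000 to 38890000 in striatum. The transgene-linked transcript Gm12695 was higher in all 24 R6/2 libraries than in any wild-type library in each region. One wild-type mouse labelled female had the Xist and Ddx3y levels of a male in both regions. A share of counts in transcripts over 5000 bases that was more than 3 scaled median absolute deviations below the median set apart 3 cortex libraries (19.2%, 19.2% and 18.9%, against a median of 22.6%) and 4 striatum libraries (11.0%, 13.7%, 14.8% and 17.8%, against 21.8%). None of them was wild type or at 30 mg/kg. Male 2 of the striatum R6/2 vehicle arm stood farthest apart, with 11.0% of counts in long transcripts and 17.5% mitochondrial counts. Cortical glutamatergic neuron markers (8 genes) summed to 952 to 1694 CPM (counts scaled to library size by TMM) in the cortex libraries and to 21.95 to 798 in the striatum libraries. Striatal projection neuron markers (8 genes) summed to 145 to 805 CPM in cortex and to 1334 to 7261 in striatum, so each region carried its own markers and some of its neighbour's. Oligodendrocyte, astrocyte, microglial and endothelial markers were present in both, and the hypothalamic markers Avp, Oxt and Hcrt had a median under 0.05 CPM in every arm.

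In wild-type cortex the 10 genes spanned a wide range of level. Per length, on the deposited FPKM scale, Cck had 175 ± 17.1 (SD, n = 8), Sst 156 ± 17.6, Gad1 115 ± 9.44 and Npy 90.3 ± 7.69. Pvalb followed at 47.3 ± 4.64, Gad2 at 31.9 ± 4.84, Vip at 23.9 ± 1.91, Nos1 at 4.89 ± 0.56, Cort at 4.13 ± 0.717 and Crh at 2.4 ± 0.393 FPKM. The libraries of Cck and Sst, of Sst and Gad1, and of Nos1 and Cort overlapped, while all other neighbours in this order did not. The order of the mean FPKM was the same in R6/2 mice on vehicle, where the libraries of Pvalb (24.9 to 31.3 FPKM) and Gad2 (21.7 to 30.8 FPKM) overlapped. In wild-type striatum Gad1 led with 189 ± 22 FPKM, ahead of Sst at 156 ± 20 and Npy at 79.4 ± 11.7.

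In the cortex of R6/2 mice on vehicle all 10 genes fell against wild type. Peptide transcripts of Vip, Crh, Npy, Sst and Cort were each at least 2.15-fold lower, and Gad2 changed least, at 1.28-fold. At an adjusted p under 0.05 by edgeR's quasi-likelihood test, 25.8% of all 17508 genes tested were lower, and the median log2 fold change was −0.99 for the members and 0.02 for all genes. The calls and their direction were the same under 11 alternative settings, among them leaving out the mouse with contradicting sex genes and the 3 libraries with few long transcripts.

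Vip, the peptide of the disinhibitory class, had 31.8, 39.4 and 40.8 CPM (lowest, median and highest) in wild-type cortex and 12.3, 13.8 and 14.95 in R6/2 vehicle cortex. The groups lay far apart, and the log2 fold change was −1.48 ± 0.07 (SE, n = 8 per arm; adjusted p 1.2e-17). Crh, corticotropin-releasing hormone, which a part of the Vip cells also makes, had 2.46, 3.27 and 4.28 CPM in wild type and 0.979, 1.21 and 1.55 in R6/2 vehicle. These groups did not overlap either (−1.43 ± 0.13, adjusted p 1.3e-10).

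Sst, whose product inhibits release from its targets, had 85.9, 94.6 and 121 CPM in wild-type cortex and 32.1, 43.2 and 55.7 in R6/2 vehicle. Npy, neuropeptide Y, had 48.1, 51.5 and 62.2 CPM against 19.7, 24.3 and 30.2. Neither pair of groups overlapped, and the log2 fold changes were −1.16 ± 0.09 for Sst (adjusted p 1.7e-12) and −1.17 ± 0.09 for Npy (9.8e-13). Cort, the precursor of cortistatin, a peptide related to somatostatin, had 2.28, 2.82 and 3.73 CPM against 0.86, 1.34 and 2.04, again without overlap (−1.10 ± 0.21, adjusted p 5.2e-05). Cck, cholecystokinin, is made by a class of interneurons and also by many pyramidal cells. It had 113, 122 and 140 CPM against 73.3, 79.2 and 114, so that 1 R6/2 library reached the wild-type range (−0.57 ± 0.08, adjusted p 8.8e-07).

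Pvalb had 42.5, 47.8 and 55.3 CPM in wild-type cortex and 24.3, 25.6 and 30.5 in R6/2 vehicle, groups that did not overlap (−0.87 ± 0.07, adjusted p 8.9e-12). Gad1, which makes most of the GABA of the cell body, had 357, 366 and 443 CPM against 171, 213 and 228, with the same change and no overlap (−0.87 ± 0.05, adjusted p 2.2e-15). Gad2, the isoform bound to synaptic vesicles, had 155, 183 and 237 CPM against 123, 155 and 171. These groups overlapped, and the fall was −0.35 ± 0.07 (adjusted p 9.4e-05). The median log2 ratio of Gad1 to Gad2 differed by −0.60 between R6/2 vehicle and wild type, with ranges of 0.31 to 0.75 and 0.73 to 1.20 that overlapped. Nos1 had 42.2, 48.7 and 60.8 CPM against 20.1, 30.9 and 38.1, without overlap (−0.76 ± 0.11, adjusted p 6.6e-07). The annotation places an antisense gene over both Gad1 and Nos1, and the strand handling of the counting is not given in the sources used here, so reads of these pairs cannot be told apart.

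**Figure D1:**
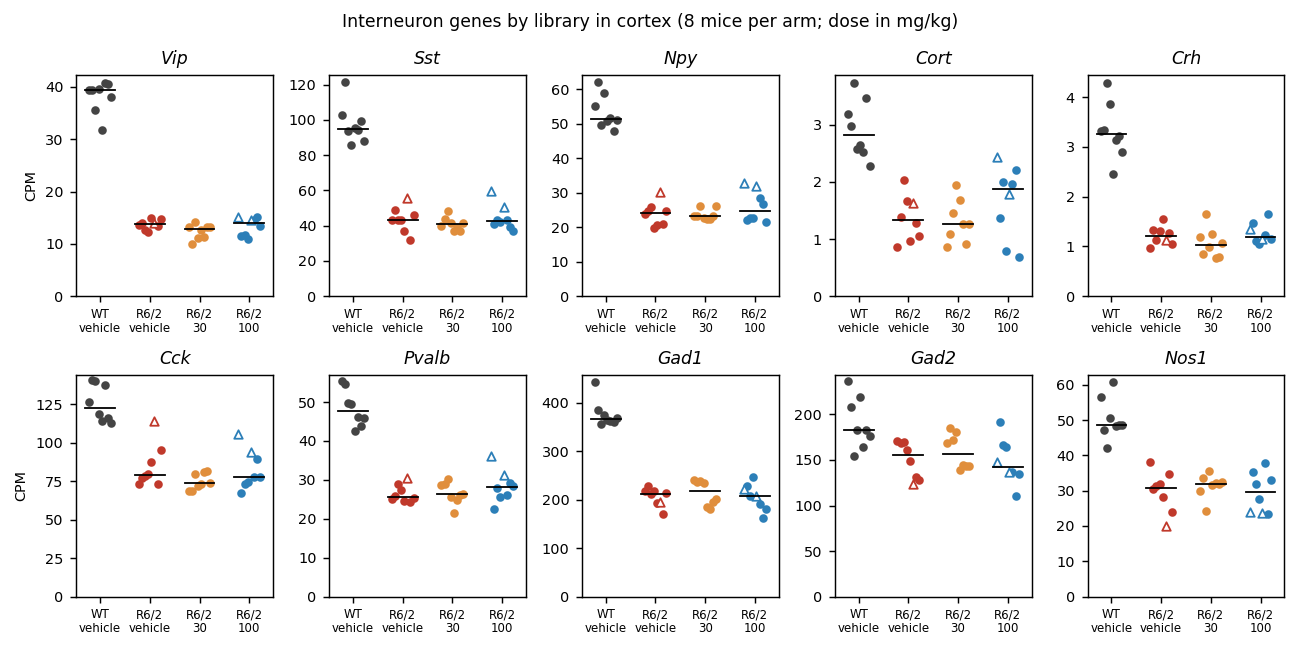
CPM of the 10 genes in each of 32 cortex libraries, by arm, on linear axes; points are mice, triangles are the 3 libraries with few long transcripts and bars are medians. Vip falls from a wild-type median of 39.4 to between 12.9 and 13.9 CPM in the R6/2 arms. No R6/2 library of Vip, Sst, Npy, Crh, Pvalb, Gad1 or Nos1 reaches the wild-type range. For what share of all genes the libraries separate in this way is not given here.

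The 2 dosed R6/2 arms differed from wild type in the same 10 genes, with 25.4% of all genes lower at 30 mg/kg and 26.7% lower at 100 mg/kg; all of these comparisons share the wild-type libraries. Vip was lower by −1.63 ± 0.07 at 30 mg/kg and −1.51 ± 0.07 at 100 mg/kg, Sst by −1.25 ± 0.09 and −1.14 ± 0.09, and Gad2 by −0.27 ± 0.07 and −0.37 ± 0.07 on the log2 scale. Over the 24 R6/2 mice together, none of the libraries reached the lowest wild-type value for Vip, Sst, Npy, Crh, Pvalb, Gad1 and Nos1. For Cck and Cort 23 of 24 lay below all wild-type libraries, and for Gad2 13 of 24. The share of all genes whose R6/2 and wild-type libraries were separated in this way is not given here. At 30 mg/kg limma on log2 FPKM called 9 of the 10 (2723 of 15140 genes lower), the other 10 alternatives all 10.

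Relative to the mean of Gad1 and Gad2 on the log2 scale, cortical Vip was lower in R6/2 vehicle than in wild type by a median of −0.92, and its groups did not overlap. Both reference genes were themselves lower in R6/2 vehicle cortex (Gad1 −0.87, Gad2 −0.35). Within arm and sex, cortical Gad2 also followed the summed striatal projection neuron markers (r 0.86). The median shifts of the ratio were −0.81 for Crh, −0.67 for Sst, −0.65 for Npy, −0.37 for Cort, −0.30 for Pvalb, −0.20 for Nos1 and 0.01 for Cck, each with overlapping groups. These ratios were computed after the levels were known and are given as a description.

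CHDI-00390576 did not move any member past the test in cortex. Against R6/2 vehicle edgeR called 0 of 10 at 30 mg/kg (background 0% of all genes; 2 members, Vip and Cck, at an unadjusted p under 0.05) and 0 of 10 at 100 mg/kg (background 0.00571%; 0 members). DESeq2 and limma on FPKM also called 0 members at either dose, as did the comparison of 100 against 30 mg/kg (background 0%; 0 members at an unadjusted p under 0.05). The log2 fold changes ran from −0.20 (Crh) to 0.09 (Gad2) at 30 mg/kg and from −0.04 (Cck) to 0.29 (Cort) at 100 mg/kg. For Vip the 95% interval at 100 mg/kg was −0.18 to 0.10, for Sst −0.16 to 0.21, for Gad1 −0.11 to 0.10 and for Cort −0.15 to 0.73. Cortical Vip at 30 mg/kg, the member with the smallest p there, had 10.1, 12.9 and 14.2 CPM, and at 100 mg/kg 10.9, 13.9 and 15.1, so both dosed arms overlapped the vehicle arm. At 100 mg/kg the smallest p was that of Npy (21.5, 24.7 and 32.9 CPM; 0.13 ± 0.09, adjusted p 0.999).

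**Figure D2:**
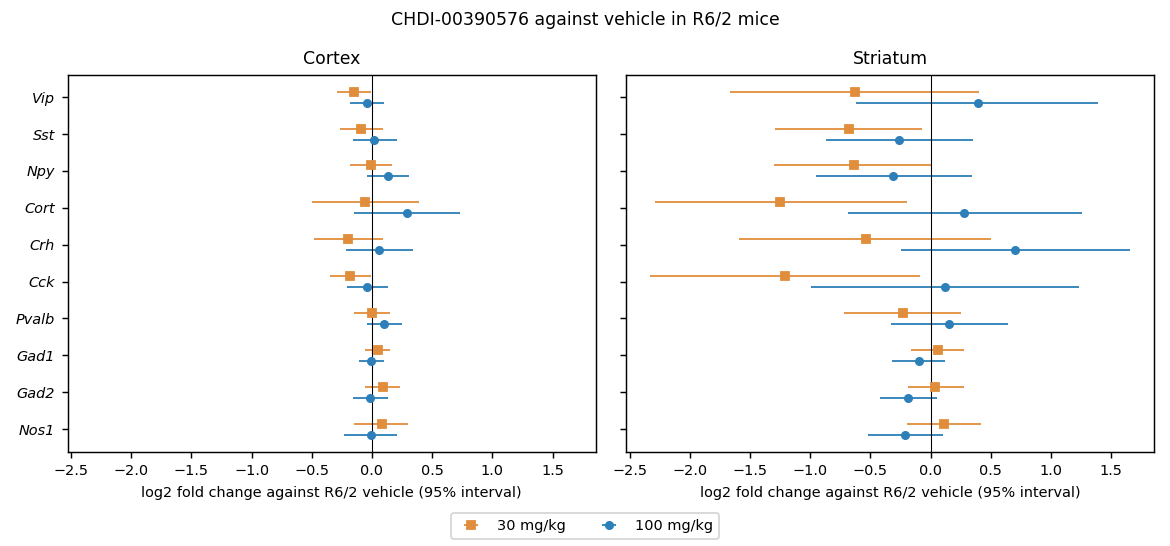
Log2 fold change of each gene at 30 mg/kg (squares) and 100 mg/kg (circles) against R6/2 vehicle, with 95% intervals, in cortex and striatum. The cortex values lie between −0.20 and 0.29; the striatum intervals are wider, with an SE of up to 0.55.

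In striatum the result depended on the gene and, for the calls of Npy, Sst and Gad1, on a single library. Against wild type, 4 of the 10 genes fell in R6/2 mice on vehicle: Crh, Vip, Nos1 and Pvalb (19.8% of 17428 genes tested were lower; the median log2 fold change was −0.30 for the members and 0.04 for all genes). Without male 2 of the vehicle arm, the library with the fewest long transcripts, 7 fell, with Npy, Sst and Gad1 added (22.1% of all genes lower), and the same 7 fell without all 4 libraries of few long transcripts (26.1% lower). Without the mouse of contradicting sex genes the count was 4 (3332 of 17514 genes lower).

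Nos1 had 70.4, 79.7 and 95.4 CPM in wild-type striatum and 18.6, 36.8 and 44.9 in R6/2 vehicle, far apart in every library (−1.18 ± 0.15, adjusted p 2.5e-07). Npy and Sst, which share their striatal cells with Nos1, showed a divided group. Npy had 42.2, 45.2 and 61.2 CPM in wild type and 20.1, 21.5 and 158 in R6/2 vehicle, where the highest value was male 2 and the other 7 mice lay at or below 25.0 CPM. The change was −0.39 ± 0.32 (adjusted p 0.34) with that library and −1.11 ± 0.15 (3.5e-07) without it. Sst had 87.4, 100.0 and 121 CPM against 51.6, 60.5 and 376, where male 2 again was highest and the other 7 did not pass 67.8 CPM. Its change was −0.08 ± 0.30 (adjusted p 0.86) with male 2 and −0.72 ± 0.15 (0.00024) without. Nos1 in the same library was the lowest of its arm, at 18.6 CPM. Transcripts of Npy and Sst are short (effective lengths of 566 and 599 bases) and those of Nos1 long (9881 bases). With the ratio of long to short transcripts as a covariate the changes were −1.01 ± 0.10 for Npy, −0.64 ± 0.07 for Sst and −1.07 ± 0.09 for Nos1, all past the test.

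**Figure D3:**
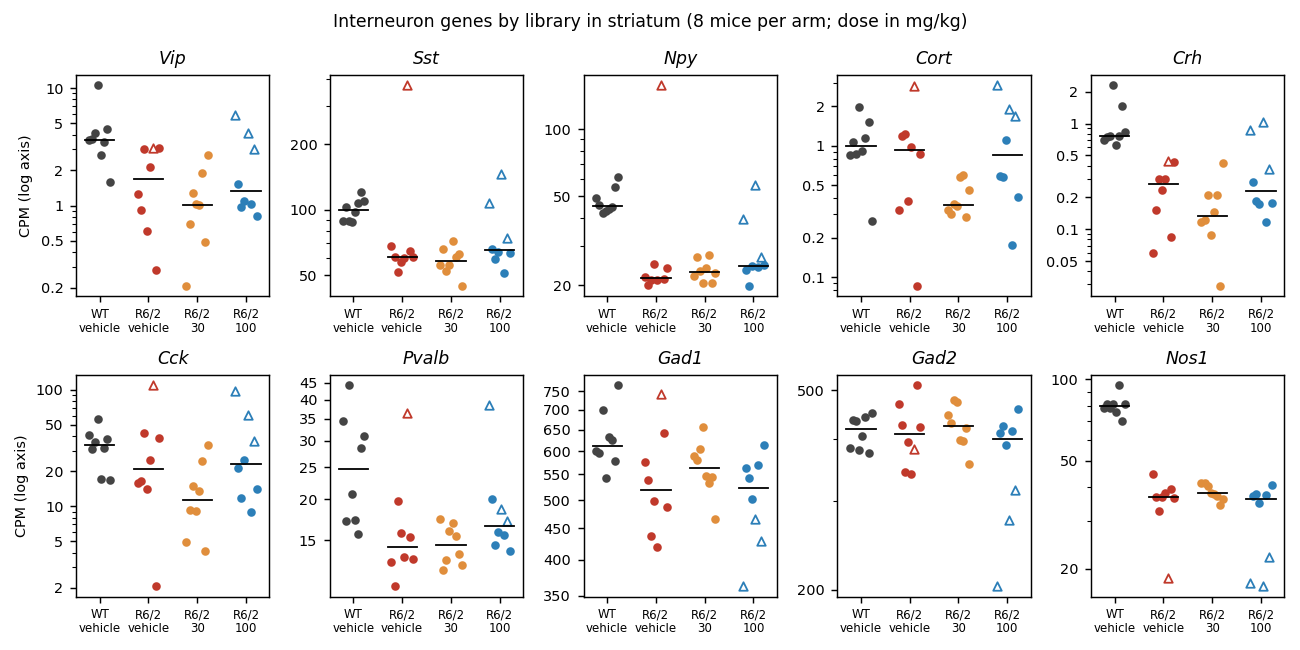
CPM of the 10 genes in each of 32 striatum libraries, by arm, on log axes; points are mice, triangles the 4 libraries with few long transcripts and bars medians. Nos1 is lower in all 24 R6/2 libraries than in any wild-type library, while in the R6/2 vehicle arm 1 triangle lies above all wild-type libraries for Sst at 376 and for Npy at 158 CPM.

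Crh was scarce in striatum, at 0.625, 0.757 and 2.34 CPM in wild type and 0.0592, 0.266 and 0.445 in R6/2 vehicle, without overlap (−2.07 ± 0.45, adjusted p 0.00041). Vip had 1.6, 3.63 and 10.7 CPM against 0.284, 1.69 and 3.1, and its overlapping groups differed by −1.29 ± 0.50 (adjusted p 0.037). Vip missed the threshold in 3 of 12 alternatives, and without 2 wild-type libraries whose column names end in another code it was −0.85 (adjusted p 0.19). Pvalb had 15.7, 24.6 and 44.3 CPM against 10.9, 14.4 and 36.4 (−0.59 ± 0.24, adjusted p 0.044), and −0.86 ± 0.20 (0.00088) without male 2. Pvalb did not pass the test with the cortical glutamatergic marker sum as a covariate, a fit given below. Cck had 16.9, 33.6 and 56.0 CPM against 2.05, 20.7 and 110, a spread that covered the wild-type range on both sides (−0.08 ± 0.55, adjusted p 0.93). Cort had 0.266, 0.998 and 1.97 CPM against 0.0852, 0.928 and 2.88 (−0.16 ± 0.48, adjusted p 0.81).

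Gad1, carried in this region mainly by the projection neurons, had 544, 612 and 768 CPM in wild type and 419, 519 and 742 in R6/2 vehicle (−0.22 ± 0.11, adjusted p 0.105), and it passed the test without male 2 (−0.29 ± 0.10, 0.017). Gad2 had 375, 419 and 450 CPM against 341, 409 and 513 and a change of −0.01 ± 0.12 (adjusted p 0.97), whose 95% interval ran from −0.24 to 0.23. Both pairs of groups overlapped.

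**Figure D4:**
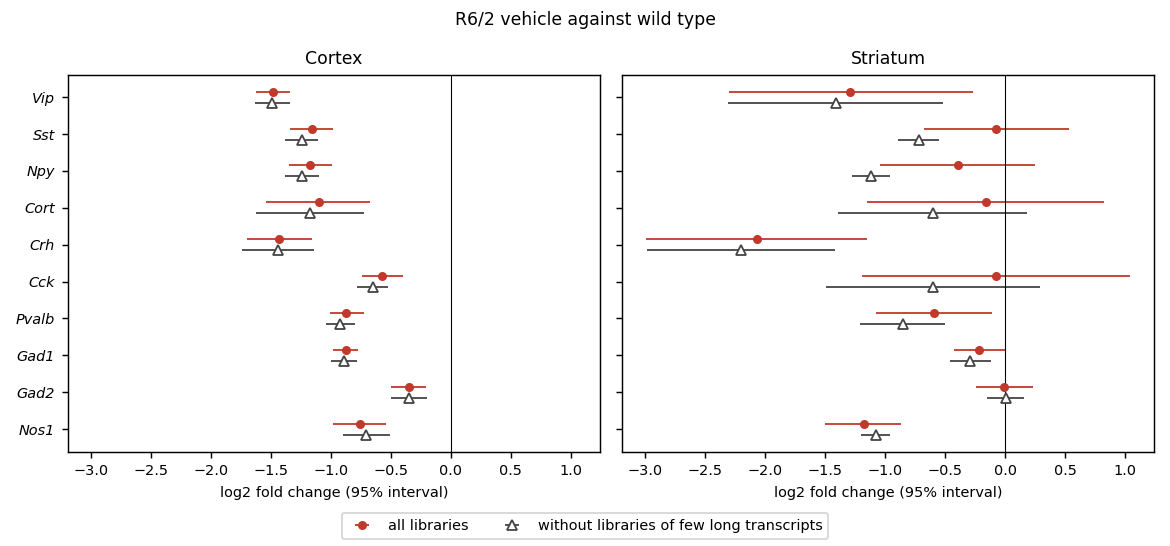
Log2 fold change of R6/2 vehicle against wild type with 95% intervals, over all libraries (filled circles) and without the libraries of few long transcripts (open triangles). In cortex the 10 values lie below 0 in both fits; in striatum Sst moves from −0.08 to −0.72 and Npy from −0.39 to −1.12 when the libraries are left out.

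At 30 mg/kg 7 of the 10 genes were lower than in wild-type striatum (background 19.3%): Vip, Pvalb, Sst, Crh, Cort, Nos1 and Npy. At 100 mg/kg 3 were lower (background 21.3%), Crh, Nos1 and Gad1, and 6 without the libraries of few long transcripts (4229 of 17624 genes lower), 3 of which libraries belong to this arm. Nos1 was lower by −1.07 ± 0.15 at 30 and −1.39 ± 0.15 at 100 mg/kg and Crh by −2.61 ± 0.47 and −1.37 ± 0.42, both comparisons sharing the wild-type libraries. Sst was lower by −0.76 ± 0.30 at 30 mg/kg, where no library stood apart, and the value at 100 mg/kg was −0.34 ± 0.29 (adjusted p 0.37), or −0.70 ± 0.09 (4.1e-07) without those libraries.

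Against R6/2 vehicle the compound moved 0 of the 10 striatal genes past the test at 30 mg/kg (background 0%; 3 members at an unadjusted p under 0.05) and 0 at 100 mg/kg (background 0%; 0 members), and 100 against 30 mg/kg gave 0 (background 0%; 4 members). DESeq2 and limma on FPKM gave 0 as well. The log2 fold changes ran from −1.25 (Cort) to 0.11 (Nos1) at 30 mg/kg and from −0.31 (Npy) to 0.70 (Crh) at 100 mg/kg, with SEs of 0.11 to 0.55. Cort at 30 mg/kg had 0.289, 0.357 and 0.604 CPM, inside the range of the vehicle arm, and the change of −1.25 ± 0.51 had an adjusted p of 0.74. At 100 mg/kg Gad2, the member with the smallest p, had 203, 400.0 and 459 CPM (−0.19 ± 0.12, adjusted p 0.999), and its 3 lowest libraries were those of few long transcripts. Between the doses Cort differed by 1.53 ± 0.51 (adjusted p 0.37), and by 0.42 ± 0.46 without the libraries of few long transcripts.

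The striatal level of several peptides moved with the summed level of the 8 cortical glutamatergic marker genes in the same library. After removing the means of arm and sex, Vip followed that sum over 32 libraries with Pearson r 0.92 and Spearman rho 0.92, and r was 0.91 without the 2 libraries farthest out. Cck gave r 0.93 (rho 0.95; 0.85 without the 2), Crh 0.79 (rho 0.81; 0.75) and Cort 0.77 (rho 0.75; 0.68). For Vip, Cck and Crh the two-sided p of both coefficients was 1e-05, the smallest that 100000 permutations within arm and sex can give, and the adjusted p over 20 relations in the 2 regions was 6.7e-05; for Cort it was 0.0002. Gad1 and Gad2 ran the other way, with r −0.58 (rho −0.68; −0.65 without the 2; adjusted p 0.02 for r and 0.001 for rho) and −0.65 (rho −0.74; −0.66; 0.0009 and 0.00052). For Sst r was 0.21 (rho 0.04; 0.11 without the 2; adjusted p 0.66 and 0.88), for Npy 0.32 (rho 0.29; 0.14; 0.53 and 0.29), for Pvalb 0.18 (rho 0.14; 0.15; 0.64 and 0.67) and for Nos1 −0.44 (rho −0.41; −0.51; 0.16 and 0.14).

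The marker sum itself had medians of 374 CPM in wild type, 251 in R6/2 vehicle, 135 at 30 mg/kg and 295 at 100 mg/kg, with overlapping ranges. Of its 8 genes 0 were called between R6/2 vehicle and wild type. At 100 mg/kg the highest sums were those of the libraries with few long transcripts, female 1 (755 CPM), male 1 (446) and male 3 (383). In the vehicle arm male 2 had 289.5 CPM, inside the range of its arm. Whether the striatal relations hold without the libraries of few long transcripts was not tested. With the sum as a covariate the genotype change of striatal Vip was −0.81 ± 0.20 (adjusted p 0.0015) and that of Crh −1.65 ± 0.29 (2.5e-05), while Pvalb had −0.53 ± 0.24 (0.075). In the same fit the change of Cort at 30 mg/kg against vehicle was −0.51 ± 0.38.

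**Figure D5:**
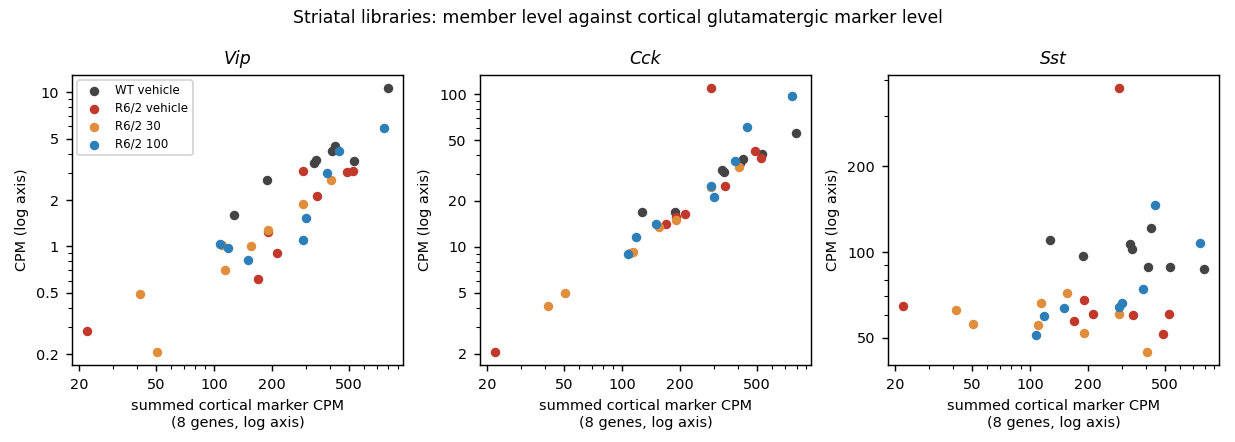
CPM of Vip, Cck and Sst in the 32 striatum libraries against the summed CPM of 8 cortical glutamatergic marker genes, both on log axes, coloured by arm. Vip (r 0.92) and Cck (r 0.93) rise with the marker sum within the arms, and Sst (r 0.21) shows no such slope but a wild-type group above most R6/2 libraries.

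In cortex the striatal projection neuron markers had sums of 316 to 805 CPM in wild type and 180 to 258 in R6/2 vehicle, with all 8 genes lower. Within arm and sex, cortical Gad2 followed this sum (r 0.86, rho 0.76; 0.79 without the 2 libraries farthest out; adjusted p 0.0002 and 0.0011). For Gad1 r was 0.48 (rho 0.34; 0.24 without the 2; adjusted p 0.058 and 0.21). For the other 8 members r lay between −0.17 and 0.31, and the lowest adjusted p was 0.188 for r and 0.205 for rho. The part of these markers in the genotype change of Gad1 and Gad2 was not tested.

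The regions were compared in one fit with the mouse as a block. In wild-type mice 8 of the 10 genes differed between striatum and cortex, against 52.1% of 18054 genes tested. Vip was lower in striatum by −3.26 ± 0.34 (adjusted p 1.3e-09), Cck by −1.96 ± 0.41, Crh by −1.74 ± 0.28, Cort by −1.47 ± 0.39 and Pvalb by −0.93 ± 0.17. Gad2 was higher in striatum by 1.17 ± 0.11 (adjusted p 8.3e-11), Gad1 by 0.78 ± 0.07 and Nos1 by 0.72 ± 0.14. Sst and Npy had differences of 0.08 ± 0.19 and −0.12 ± 0.20 (adjusted p 0.75 and 0.66). The difference of the genotype effect between regions passed for 1 of the 10 genes, against 10.6% of all genes in either direction. This was Gad1, whose change was 0.62 ± 0.09 less negative in striatum (adjusted p 1.2e-05). For Sst the difference was 0.73 ± 0.27 (adjusted p 0.089), for Nos1 −0.46 ± 0.20 (0.16) and for Vip 0.17 ± 0.49 (0.91). Without the libraries of few long transcripts Sst (0.57, adjusted p 0.00015) and Nos1 (−0.45, 0.0034) passed too. In that fit 1975 of all 18514 genes tested passed with a positive difference and 1469 with a negative one.

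Males and females did not differ past the test in the genotype effect on any member, in cortex (0 of 10; background 0%; 1 member at an unadjusted p under 0.05) or in striatum (0 of 10; background 0%; 0 members), and DESeq2 and limma also called 0. The member with the smallest p was Cck in cortex, adjusted p 0.72, and Npy in striatum, adjusted p 0.76.

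Other genes of the interneuron and its peptide systems were counted from lists, in R6/2 vehicle against wild type. Over all genes tested 25.8% were lower and 28.1% higher in cortex, and 19.8% were lower and 22.6% higher in striatum. Of 22 further interneuron markers, all 22 fell in cortex (median log2 fold change −0.65 beside 0.02 for all genes) and 13 in striatum (−0.65 beside 0.04). Lamp5, a membrane protein of neurogliaform cells that cortical pyramidal cells also make, went from 218 ± 23 to 47.6 ± 6.71 CPM in cortex (−2.19 ± 0.08, adjusted p 4e-20). The potassium channel Kcnc1 of fast-spiking cells (−0.87 ± 0.05) and the synaptic vesicle protein Syt2 (−1.10 ± 0.08) fell there as well. In striatum the cannabinoid receptor Cnr1, also made by projection neurons, went from 510 ± 57.9 to 115 ± 20.4 CPM (−2.15 ± 0.10, adjusted p 6e-17). Pthlh, a peptide of striatal Pvalb and related cells, went from 4.7 ± 0.472 to 1.25 ± 0.392 CPM (−1.92 ± 0.16), and Tacr1, the substance P receptor, from 42.5 ± 4.66 to 14.5 ± 3.02 CPM (−1.55 ± 0.15).

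Of 16 interneuron transcription factors 8 fell and 3 rose in cortex, and 3 fell and 1 rose in striatum, so that the cortical share that rose and both striatal shares were below those of all genes. Dlx1, which specifies and maintains interneurons, fell in cortex from 36.0 ± 2.52 to 23.1 ± 2.4 CPM (−0.64 ± 0.04, adjusted p 3.8e-14) and Lhx6, the factor of the Sst and Pvalb lineage, by −0.43 ± 0.05. Dlx2, the neighbour of Dlx1, rose in both regions, from 3.82 ± 0.583 to 5.9 ± 0.666 CPM in cortex (0.63 ± 0.08, adjusted p 1.9e-07) and by 0.53 ± 0.15 in striatum. Of 7 genes of the perineuronal net, the matrix that surrounds many Pvalb cells, 5 fell in cortex and 4 in striatum. Its link protein Hapln1 went from 27.8 ± 3.06 to 13.6 ± 0.855 CPM in cortex (−1.03 ± 0.06) and from 22.4 ± 2.77 to 10.6 ± 1.69 in striatum (−1.08 ± 0.09).

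Of 13 receptors of the member peptides that were tested, out of 14 listed, 10 fell and 1 rose in cortex and 6 fell in striatum. The somatostatin receptor Sstr2 fell by −1.23 ± 0.06 in cortex, from 22.9 ± 1.77 to 9.77 ± 0.794 CPM, and by −1.26 ± 0.21 in striatum. The cholecystokinin receptor Cckbr (−1.03 ± 0.08), the Vip receptor Vipr1 (−0.75 ± 0.06) and the Crh receptor Crhr1 (−0.65 ± 0.06) fell in cortex, with Vipr1 (−0.79 ± 0.10) and Crhr1 (−0.61 ± 0.15) also lower in striatum. Of 11 genes of peptide processing and the granins, 6 fell and 2 rose in cortex and 4 fell and 2 rose in striatum, with the smallest p in both for the convertase Pcsk2 (−0.60 ± 0.03 and −0.58 ± 0.05).

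Of 6 genes that package, take up and break down GABA, 3 fell in cortex and 1 in striatum, the latter a smaller share than that of all genes. Of 7 nitric oxide signalling partners 4 fell in cortex and 3 in striatum. The adaptor Nos1ap went from 86.7 ± 9.23 to 39.8 ± 5.75 CPM in cortex (−1.12 ± 0.10) and the guanylyl cyclase subunit Gucy1a1, part of the receptor of nitric oxide, by −0.67 ± 0.05. Of 11 other neuropeptides 8 fell in cortex, and 4 fell and 1 rose in striatum. Pdyn (−1.75 ± 0.16) and Penk (−1.99 ± 0.20), opioid precursors that striatal projection neurons also make, fell in cortex, and Nts, neurotensin, rose in striatum from 4.37 ± 0.911 to 9.82 ± 4.86 CPM (1.16 ± 0.20). At 30 and at 100 mg/kg against vehicle, 0 genes of any of these lists were called by edgeR in either region.

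Markers of other cells were counted in the same comparison. Of 8 pan-neuronal markers 5 fell and 1 rose in cortex, where their sum ran from 7498 to 8440 CPM in wild type and from 5947 to 6637 in R6/2 vehicle. In striatum 4 fell and 1 rose, with sums of 5037 to 6911 and 4323 to 5377 CPM. All 8 striatal projection neuron markers fell in striatum (median log2 fold change −1.61), where their sum ran from 5110 to 7261 CPM in wild type and from 1713 to 2298 in R6/2 vehicle. Of 6 astrocyte markers 5 fell in each region, of 6 oligodendrocyte markers 3 in each, of 8 cortical glutamatergic markers 4 in cortex (median −0.24), of 6 microglial markers 1 in each, of 5 endothelial markers 2 in each and of 5 choroid plexus markers 0 in cortex and 2 in striatum. The microglial shares in both regions and the choroid plexus share in cortex were below those of all genes called lower. The 1 hypothalamic marker tested in each region, of 6 listed, was not called. Apart from the fit in striatum with the cortical glutamatergic marker sum as a covariate, the part of these markers in the members' changes was not tested.

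Outside the brain, Pvalb and Nos1 were the members tested in tibialis muscle and heart. In tibialis 2 of 2 were lower in R6/2 vehicle than in wild type (background 22.2%), and in heart 0 of 2 by edgeR (background 7.46%), with 0 at an unadjusted p under 0.05.

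Across the 32 cortex libraries, with the means of arm and sex removed, the genes most like each member were listed by Pearson r of log2 CPM as a description; the libraries differ in RNA length profile, so r is also given without the 3 libraries of few long transcripts. Gad2 was most like Rgs9 (0.90; 0.91 without them; 0.86 in striatum) and Gnal (0.89; 0.90; 0.94), both genes of striatal projection neurons, and Gad1 was most like Necab2 (0.79; 0.78; 0.72), Cpne5 (0.79; 0.83; 0.83) and Pdyn (0.77; 0.77; 0.83). Sst was most like Rnf187 (0.89; 0.83; 0.94) and Atp5g3 (0.88; 0.74; 0.98), Npy like Fth1 (0.82; 0.66; 0.91) and Nos1 like Dcc (0.89; 0.84; 0.93). For Vip the highest r was 0.74 (Gins3; 0.72; 0.06), for Crh 0.67 (Mphosph10; 0.70; 0.20), for Cort 0.80 (Naxd; 0.77; 0.63), for Pvalb 0.82 (Lysmd2; 0.68; 0.68) and for Cck 0.88 (Mpc2; 0.78; 0.56). Among the members themselves Sst and Npy had r 0.76 in cortex (0.51 without the 3 libraries) and 0.95 in striatum, and Vip and Cck 0.46 (0.42) and 0.91.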

How the data were processed

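RNA from frozen tissue of 32 mice was extracted with miRNeasy and sequenced on Illumina instruments, per the labels' protocols, and CASAVA 1.8.2 is named in the submitters' processing notes. For the aligner, the quantifier and the genome build, no source used here names one. The authors deposited expected counts per Ensembl gene (67.7% of values above 0 whole) and FPKM values. No value column was left unused by lack of a sample. Expected counts were rounded. Cortex and striatum were each fitted in edgeR 4.0.16 (R 4.3.3) after filterByExpr and TMM scaling, with arm and sex as terms and the quasi-likelihood test; SE is the log2 fold change divided by the square root of F. Calls had a Benjamini-Hochberg adjusted p below 0.05 over all genes tested. Regions were compared in 1 fit of 64 libraries with the mouse as a block. Replicates are mice. Alternatives were DESeq2 1.42.0, limma 3.58.1 on log2(FPKM + 0.1), RLE scaling, no filter on low counts, the replicate number as a block, 2 groups alone, covariates, and leaving out libraries; the column code, the cortical marker covariate and the single left-out library were chosen after seeing the data. Scripts were tested on simulated data. All members are named; of each other list up to 4 genes with the smallest p per region were eligible, and for each member the 3 genes of highest correlation in cortex. Members and lists were chosen with earlier results of these data known.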

Additional observations from a re-analysis of the deposited data

Results flagged for a closer look

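Among 80 groups of 8 libraries, 11 held a library far from the other 7, where chance gives about 1 in 20 groups. The groups share libraries, and 6 of the 11 are from 1 library, so the number cannot be read as an excess. In the striatum R6/2 vehicle arm, male 2 was far above the rest for Npy (158.4 CPM, arm median 21.5), Sst (376.1, median 60.5), Cck (110.3, median 20.7), Cort (2.875, median 0.928) and Pvalb (36.44, median 14.4), and far below for Nos1 (18.58, median 36.8). These 6 values come from the library with 11.0% of its counts in long transcripts. Pvalb reached 38.67 CPM in female 1 of the striatum 100 mg/kg arm (median 16.6), which had 14.8% in long transcripts.

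The other far values came from libraries above the limit set for few long transcripts. Gad1 was 443.4 CPM in wild-type cortex female 1 (median 366), Vip was 10.7 in wild-type striatum female 4 (median 3.63), a library with the highest share of long transcripts in striatum (24.1%), the highest cortical marker sum (798 CPM) and another column code, Crh was 0.4267 in male 4 of the striatum 30 mg/kg arm (median 0.133) and Nos1 was 95.41 in wild-type striatum male 2 (median 79.7).

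The genotype effect on Gad1 differed between striatum and cortex by 0.62 on the log2 scale (edgeR adjusted p 1.18e-05). In tibialis muscle, a tissue outside the brain comparisons, the change between R6/2 vehicle and wild type was −2.36 for Pvalb and −0.86 for Nos1 on the log2 scale.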

How the results depend on the processing

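Of the recomputed counts of members called, 163 stayed within 1.5 times the reported count and 13 moved. In striatum R6/2 vehicle against wild type (4 called), the count was 2 with the 2 groups alone, 2 without the libraries of another column code, 7 without the libraries of few long transcripts and 7 without male 2 of the vehicle arm. Over all genes tested, 3445 of 17428 were lower in the reported fit. In the same order the alternatives had 3248 of 16771, 3209 of 17573, 4604 of 17624 and 3868 of 17496. At 100 mg/kg against wild type (3 called) it was 5 with the cortical marker covariate, 7 with the long to short transcript covariate, 6 without the libraries of few long transcripts and 5 without male 2. Here 3715 of 17428 genes were lower in the reported fit. The alternatives, in the same order, had 3937 of 17428, 4416 of 17428, 4229 of 17624 and 4395 of 17496. For the regional difference of the genotype effect (1 called) it was 2 by DESeq2, 2 by limma, 2 with no mouse block, 4 with the long to short covariate and 3 without the libraries of few long transcripts. Of all 18054 genes the reported fit called 743 positive and 1167 negative. DESeq2 called 937 and 1110, limma 982 and 658 (of 15189), and the fit with no mouse block 629 and 974. The long to short covariate gave 1599 and 2433, and leaving out the libraries of few long transcripts 1975 and 1469 (of 18514). Leaving out male 2 gave 0 to 10 members called over the comparisons. Replicate numbers did not pair the samples (correlations of same-number deviations −0.22 to 0.28 in cortex and −0.62 to 0.41 in striatum), and with the replicate block the cortex counts were 10, 10 and 10 against wild type, the striatum counts 3, 7 and 3, and all dose counts 0; striatal Vip was −1.38 (edgeR adjusted p 0.051). With that block 4475, 4396 and 4632 of 17508 genes were lower in cortex, and 3362, 3306 and 3618 of 17428 in striatum.

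For the dose comparisons, member values of the opposite sign numbered 14, 7 and 4 of 110 in cortex (30 and 100 mg/kg against vehicle, 100 against 30) and 11, 15 and 3 of 118 in striatum, none called. Apart from the dose comparisons, where the member of smallest p alone is listed by name, signs turned as follows, with 1 value past the test. In striatum R6/2 vehicle against wild type, Sst was 0.01, Cck 0.36 and Cort 0.25 with the cortical marker covariate, and Cck 0.15 and Cort 0.03 without the other column code. Gad2 was 0.09 by limma, 0.05 with the long to short covariate, 0.00 without the mouse of contradicting sex genes, 0.01 without the libraries of few long transcripts and 0.01 without male 2. With the long to short covariate the regional difference of Cck was −0.01 and wild-type striatum against cortex for Sst −0.21 (adjusted p 0.000107). Without the libraries of few long transcripts Gad2 at 100 mg/kg against vehicle was 0.01, and the striatal sex difference of Npy was −0.17, as it was without male 2 (−0.17). Beyond the covariates' and omissions' own construction, the cause was not tested.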

Other observations

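In tibialis muscle, where Pvalb is the calcium buffer of fast fibres and Nos1 the synthase anchored at the membrane, both genes were lower in R6/2 mice. Pvalb had 10781 ± 669 CPM (SD, n = 8) in wild type and 2129 ± 384 in R6/2 vehicle (log2 fold change −2.36 ± 0.12, edgeR adjusted p 1.54e-16). Nos1 had 198 ± 12.3 and 109 ± 15.7 CPM (−0.86 ± 0.12, adjusted p 3.08e-07). Neither pair of groups overlapped, and 22.2% of all genes tested in tibialis were lower. At 30 and 100 mg/kg Pvalb had 2274 ± 295 and 2101 ± 517 CPM, and Nos1 had 111 ± 13.3 and 92.5 ± 23.5. In heart Pvalb (−0.73 ± 0.64, adjusted p 0.483) and Nos1 (−0.36 ± 0.24, adjusted p 0.341) did not pass, where 7.46% of genes were lower.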
